A study of Mus musculus with 9 samples.

Results

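Genes of the myeloid C-type lectin receptor system were described, 8 in all and chosen by name: the receptors Clec4e, Clec4d, Clec4n, Clec5a, Clec7a, Clec10a and Clec4a2, and the signalling adaptor Fcer1g. Every probe that is not a control spot and whose RefSeq transcript matched one of these symbols was taken. This gave 10 probes for 7 of the 8 genes, among 16842 genes tested. No probe was matched to Clec7a (Dectin-1), which was not analysed here. RNA was extracted from the whole lung of 9 mice and hybridised to 9 one-colour Agilent arrays, 3 mice per group. All mice were TRF1flox/flox, and all were given tamoxifen weekly, at 250 mg/kg, starting when they were 8 weeks old. The control mice carried no cre transgene, were 11 months old at collection and had been treated for 9 months. The SPC-cre TRF1flox/flox mice were 5 months old when treated for 3 months and 11 months old when treated for 9 months, and are called 3-month and 9-month cre below. The SPC promoter is that of surfactant protein C, a product of alveolar type 2 cells, so that cre is directed to a subset of the cells from which the RNA came. The 3-month cre mice were 6 months younger than the controls, and there was no 3-month control group. The design was stated to look for early and late changes.

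C-type lectin receptors bind sugars and lipids on microbes, on dead cells and on host glycoproteins. Mincle (Clec4e), MCL (Clec4d) and Dectin-2 (Clec4n) have short tails and signal through the Fc receptor gamma chain encoded by Fcer1g, whose tyrosine motif recruits the kinase SYK, and from there CARD9 and NF-kB. MDL-1 (Clec5a) pairs with the adaptors DAP12 (Tyrobp) and DAP10 (Hcst), and Dectin-1 carries its own tyrosine motif. DCIR (Clec4a2) carries an inhibitory motif that recruits phosphatases, and MGL1 (Clec10a) takes up glycoproteins that end in galactose or N-acetylgalactosamine. These receptors are found mainly on monocytes, macrophages, neutrophils and dendritic cells, and in lung they are best known for responses to mycobacteria and fungi.

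A level below is log2 of the background-subtracted processed signal, minus the 75th percentile of the probes on the same array, so that a level of 0 equals that percentile and a step of 1 is a doubling. Levels of different genes come from different probes and are not set against each other. The words rose and fell are kept for called genes, those with a Benjamini-Hochberg adjusted p under 0.05 in limma over all 16842 genes. The 75th percentile of the processed signal lay between 958 and 1430 units, local background had medians of 28 to 35 units, no spot was saturated, and correlations between arrays were 0.957 to 0.992. The arrays lay on 2 slides: slide 1 held the 3 controls and replicate 1 of 3-month cre, and slide 2 held the other 5 arrays. The share of probes well above background was 62.7% to 64.9% on slide 1 and 67.9% to 72.4% on slide 2. Reading sex from Xist and Y-linked genes gave 3 males among the controls and 1 male with 2 females in each cre group. Terf1, which encodes TRF1, the deleted telomere protein, had levels of -0.97 to 0.20. Its difference from control was -0.52 ± 0.19 (SE, adjusted p = 0.131) in 9-month cre and -0.55 ± 0.19 (adjusted p = 0.190) in 3-month cre. Sftpc, the surfactant gene that marks alveolar type 2 cells, lay between 7.89 and 8.60 on all arrays.

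The adaptor and 5 of the 7 listed receptors had a promoter in the RefSeq table used (build GRCm38.p6), and all of these receptors lie on chromosome 6. The 250 bases before the transcription start are printed for the 4 genes that were called in 9-month cre, since the results turn on them. Capitals mark the core of the binding sequence of PU.1, a transcription factor of the myeloid lineage, searched as GAGGAA on both strands (TTCCTC on the other strand). The windows are chr6:123261857-123262106 on the plus strand for Clec4d, chr6:123289872-123290121 on the minus strand for Clec4e, chr6:40585806-40586055 on the minus strand for Clec5a and chr1:171234350-171234599 on the minus strand for Fcer1g, each written 5′ to 3′ in the direction of the gene.
Clec4d: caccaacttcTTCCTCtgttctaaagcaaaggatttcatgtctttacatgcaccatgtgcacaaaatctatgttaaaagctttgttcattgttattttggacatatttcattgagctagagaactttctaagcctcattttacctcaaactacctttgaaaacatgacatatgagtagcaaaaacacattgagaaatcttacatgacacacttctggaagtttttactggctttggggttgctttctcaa
Clec4e: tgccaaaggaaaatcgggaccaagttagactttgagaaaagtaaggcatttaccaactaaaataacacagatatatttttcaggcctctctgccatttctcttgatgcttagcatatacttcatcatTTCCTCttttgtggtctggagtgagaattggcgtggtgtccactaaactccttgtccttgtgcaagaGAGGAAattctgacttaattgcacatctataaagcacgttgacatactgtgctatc
Clec5a: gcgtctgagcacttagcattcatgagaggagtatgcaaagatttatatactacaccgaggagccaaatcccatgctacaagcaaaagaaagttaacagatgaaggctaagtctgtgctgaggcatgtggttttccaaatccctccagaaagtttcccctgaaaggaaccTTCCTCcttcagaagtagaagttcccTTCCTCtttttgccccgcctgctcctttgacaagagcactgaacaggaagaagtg
Fcer1g: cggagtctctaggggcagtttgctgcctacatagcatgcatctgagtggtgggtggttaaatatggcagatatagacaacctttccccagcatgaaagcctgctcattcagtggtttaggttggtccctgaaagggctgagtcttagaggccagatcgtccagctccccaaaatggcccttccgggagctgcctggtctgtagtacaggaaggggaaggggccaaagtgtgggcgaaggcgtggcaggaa
The core lay 240 bases before the start in Clec4d, 123 and 56 bases before it in Clec4e, and 81 and 55 bases before it in Clec5a, and these letters were not in the Fcer1g window. The other windows were 2 of Clec7a, which overlap and hold the same site, and that of Clec4a2. In all, 4 of 6 genes and 5 of 7 windows held the core, against 23.3% of all 32851 promoter windows of that length. The AP-1 sequence TGANTCA was in none of the 7 windows and in 6.75% of all windows. A match of letters is a description and does not show binding.

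The comparison of 9-month cre with the age-matched controls addresses the late stage. Of the 7 measured genes, 4 rose: Clec4e 12.7-fold, Clec4d 5.28-fold, Clec5a 3.61-fold and Fcer1g 2.67-fold. None fell. Over all genes, 3.65% were called higher and 2.81% lower. Clec4n and Clec4a2 also had all 3 arrays of 9-month cre above all 3 controls without being called, and Clec10a overlapped. In whole lung RNA, more cells of a type and more RNA per cell cannot be told apart.

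Clec4e, the receptor for mycobacterial cord factor and for a protein released by dying cells, had levels of -1.81, -1.69 and -0.91 in the controls, -1.27, 0.07 and -0.70 in 3-month cre, and 2.31, 0.96 and 3.30 in 9-month cre. In processed signal, the controls read 302, 341 and 614 units and the 9-month cre lungs 4758, 2204 and 10693 units. All 9-month lungs stood above all other lungs, and they spread over more than the other groups, with an SD of 1.18 against 0.49 in the controls. The log2 fold change was 3.66 ± 0.58 (SE, adjusted p = 0.0180), the 16th highest of the 16842 genes. Clec4d, the partner of Mincle that raises its surface level, had levels of 0.15, -0.52 and 1.48 in the controls, 0.85, 1.26 and 0.76 in 3-month cre, and 2.73, 2.76 and 2.82 in 9-month cre. Here the spread was in the controls (SD 1.02), while the 9-month lungs lay within 0.050 (SD) of their mean of 2.77. The log2 fold change was 2.40 ± 0.43 (adjusted p = 0.0232). Clec4e and Clec4d are neighbours, but the 9-month lung with the lowest Clec4e level, replicate 2, was not low in Clec4d.

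Clec4n, which encodes the fungal mannan receptor Dectin-2, had levels of 1.35, 1.17 and 1.63 in the controls, 2.52, 3.07 and 2.91 in 3-month cre, and 2.86, 2.02 and 4.30 in 9-month cre. Every cre lung was above every control, while the 9-month lungs lay below, among and above the 3-month ones. At 9 months the log2 fold change was 1.68 ± 0.49 (95% interval 0.56 to 2.80, adjusted p = 0.0756), which was not called. Fcer1g, the adaptor that Mincle and Dectin-2 need to reach the surface and to signal, had levels of 3.23, 3.16 and 3.38 in the controls, 3.42, 4.08 and 3.88 in 3-month cre, and 4.59, 4.17 and 5.27 in 9-month cre. The 3 groups did not overlap at all, in the order control, 3-month cre, 9-month cre. The log2 fold change at 9 months was 1.42 ± 0.28 (adjusted p = 0.0274).

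**Figure D1:**
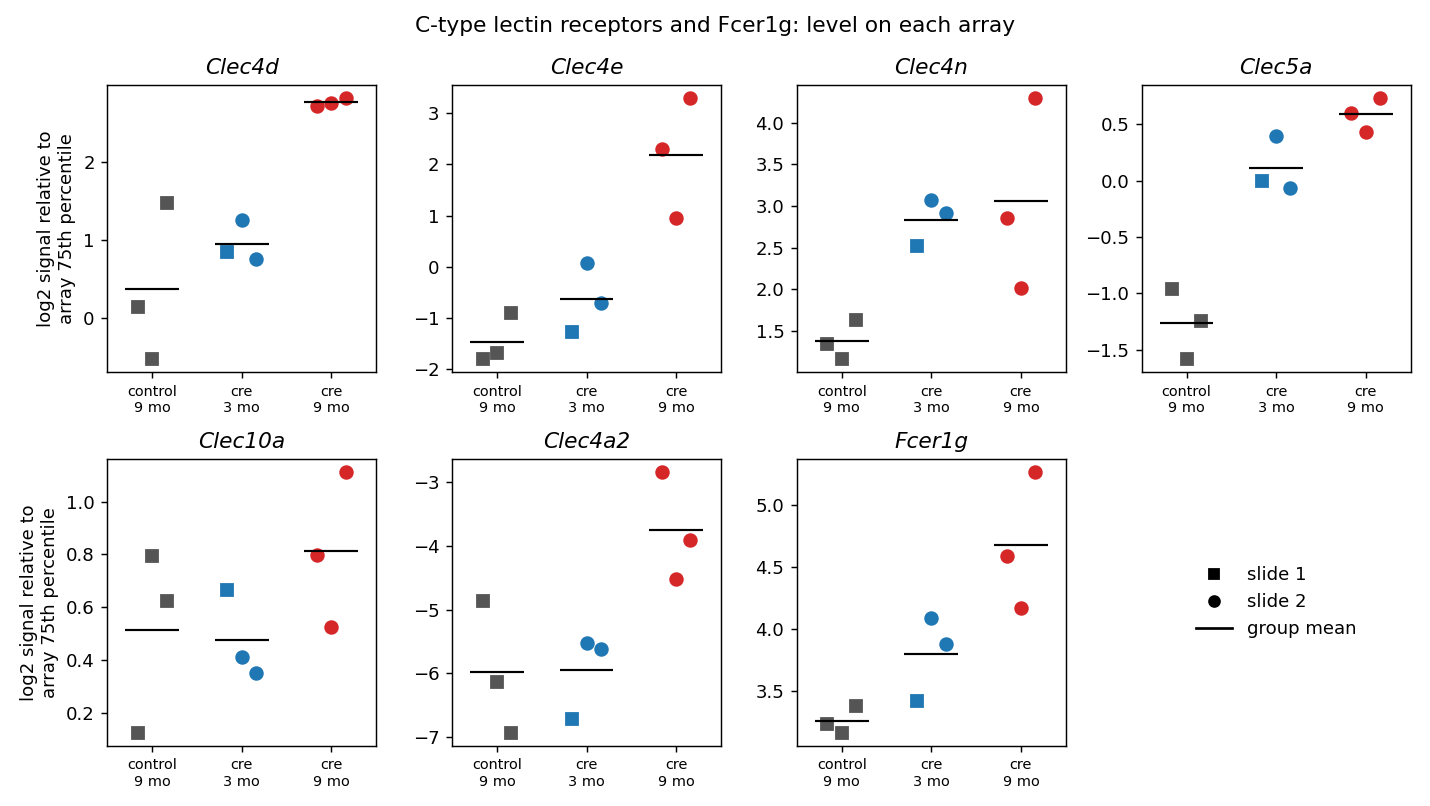
Levels of the 7 measured genes on each of the 9 arrays, as log2 signal relative to the array's 75th percentile, by group, with a line at the group mean and the marker shape giving the slide. Clec4e and Fcer1g are higher in all 9-month cre lungs than in all other lungs, whereas Clec10a overlaps in all 3 groups.

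Clec5a, the DAP12-coupled receptor of monocytes and neutrophils, was the steadiest of the genes that rose. Its brightest probe, used for the gene, gave levels of -0.96, -1.58 and -1.25 in the controls, -0.0082, 0.40 and -0.067 in 3-month cre, and 0.60, 0.43 and 0.73 in 9-month cre. The controls lay below all cre lungs, and the 9-month lungs lay just above the 3-month ones. At 9 months the log2 fold change was 1.85 ± 0.19 (95% interval 1.42 to 2.29, adjusted p = 0.00897). A dimmer probe, also well above background on all 9 arrays, gave levels of -4.83, -5.15 and -4.68 in the controls, -3.72, -2.95 and -2.99 in 3-month cre, and -3.08, -3.06 and -2.99 in 9-month cre. When each probe was tested on its own, its log2 fold change was 1.85 ± 0.22 in 9-month cre (adjusted p = 0.0127) and 1.67 ± 0.22 in 3-month cre (adjusted p = 0.0308). A further probe was not well above background in any control and passed the filter through the cre lungs alone. Its bounds were at least 1.11-fold higher in 9-month cre and at least 1.33-fold higher in 3-month cre. The adjusted p-values of its own limma fit, 0.0134 and 0.0241, rest on control values not well above background and do not belong to the bounds. Over all probes, 1.95% were called higher at 9 months and 0.345% at 3 months. The 2 probes that were well above background on all 9 arrays placed every cre lung above every control. The dimmest probe did so too, but its control values were not well above background. The probes differ in the order of the 2 cre groups: the dimmest had 3-month cre higher, by 0.26 on the log2 scale, without a call.

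**Figure D2:**
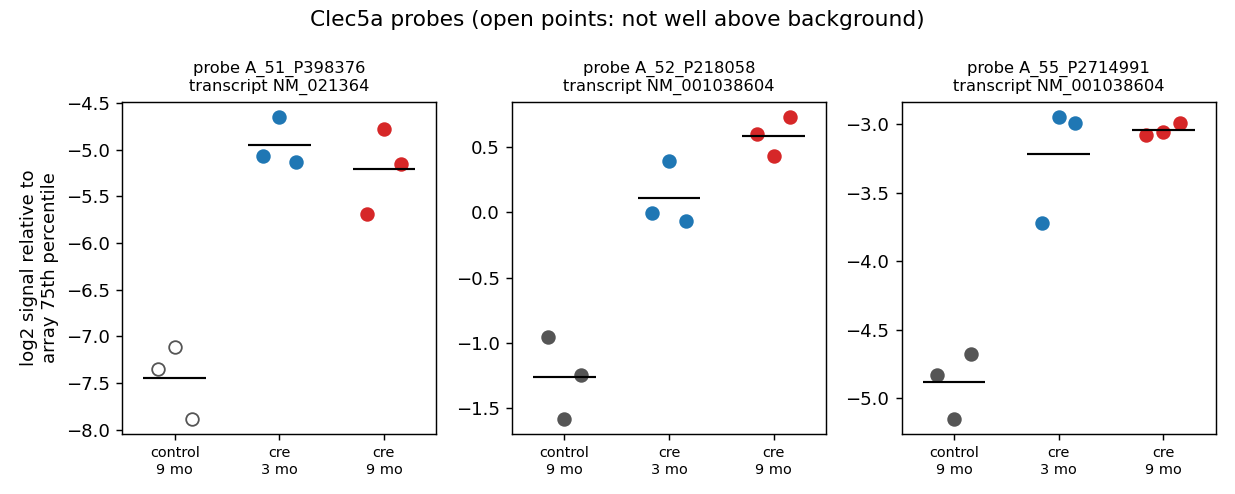
Levels of the 3 Clec5a probes on each array, as log2 signal relative to the array's 75th percentile, with open points where the probe was not well above background and a line at each group mean. In each probe all 6 cre lungs lie above all 3 controls, and the dimmest probe has only open points in the controls.

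The inhibitory receptor Clec4a2 was dim. Its probe was well above background in 1 of 3 controls, 1 of 3 lungs of 3-month cre and 3 of 3 lungs of 9-month cre. The levels were -4.86, -6.13 and -6.93 in the controls, -6.71, -5.52 and -5.62 in 3-month cre, and -2.84, -4.51 and -3.90 in 9-month cre. All 9-month lungs were above all others, and the fitted log2 difference from control was 2.23 ± 0.60 (adjusted p = 0.0634), which was not called. Its size depended on the background correction: it was 0.79 with normexp and 0.92 in the deposited values. Clec10a, the galactose-type lectin, had levels of 0.12, 0.79 and 0.63 in the controls, 0.66, 0.41 and 0.35 in 3-month cre, and 0.80, 0.53 and 1.11 in 9-month cre. The groups overlapped, and its log2 fold change at 9 months was 0.30 ± 0.21 (95% interval -0.18 to 0.78, adjusted p = 0.382). Its other probe was not well above background on any array.

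Clec4a2 passed the filter on dim probes through the 9-month lungs alone and is left out of the next counts. Of the 6 genes well above background on all 9 arrays, 5 had all 9-month lungs above all controls, against 17.5% of all genes that were higher without overlap. The median of their log2 fold changes was 1.76, against 0.024 over all genes, and all 6 were positive, against 52.8% of all genes. Values from the authors' own deposited normalization kept 4 calls, but there 554 genes rose and 651 fell over the whole table, against 614 and 473 here. With the slide as a block limma called 0 of the 7 genes, 3 of which had an unadjusted p under 0.05, and the 9-month log2 fold changes were 2.71 for Clec4e, 2.24 for Clec4d, 1.68 for Clec5a and 0.86 for Fcer1g (adjusted p between 0.923 and 0.985). All controls lay on slide 1 and all 9-month lungs on slide 2, so no comparison within a slide exists. The slide difference in the block fit comes from the 3-month lungs, of which only replicate 1 lay on slide 1. The block values therefore depend on that lung. With sex as a covariate the log2 fold changes were 4.08, 2.53, 2.00 and 1.52 in the same order, none called, with adjusted p of 0.0604, 0.0801, 0.0520 and 0.0878. Leaving out one lung in turn, Clec5a was called in 9 of 9 fits. Clec4e was not called without control replicate 1 (log2 fold change 3.49, adjusted p = 0.0505), control replicate 2 (3.55, 0.0629) or 9-month cre replicate 1 (3.60, 0.0561), and Clec4d was not called without the same lungs (2.29, 1.95 and 2.42). Fcer1g was not called without those 3 lungs or control replicate 3 (1.41, 1.37, 1.46 and 1.48). Without 9-month cre replicate 2, Clec4n (2.20, adjusted p = 0.0211) and Clec4a2 (2.61, adjusted p = 0.0483) were called as well.

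**Figure D3:**
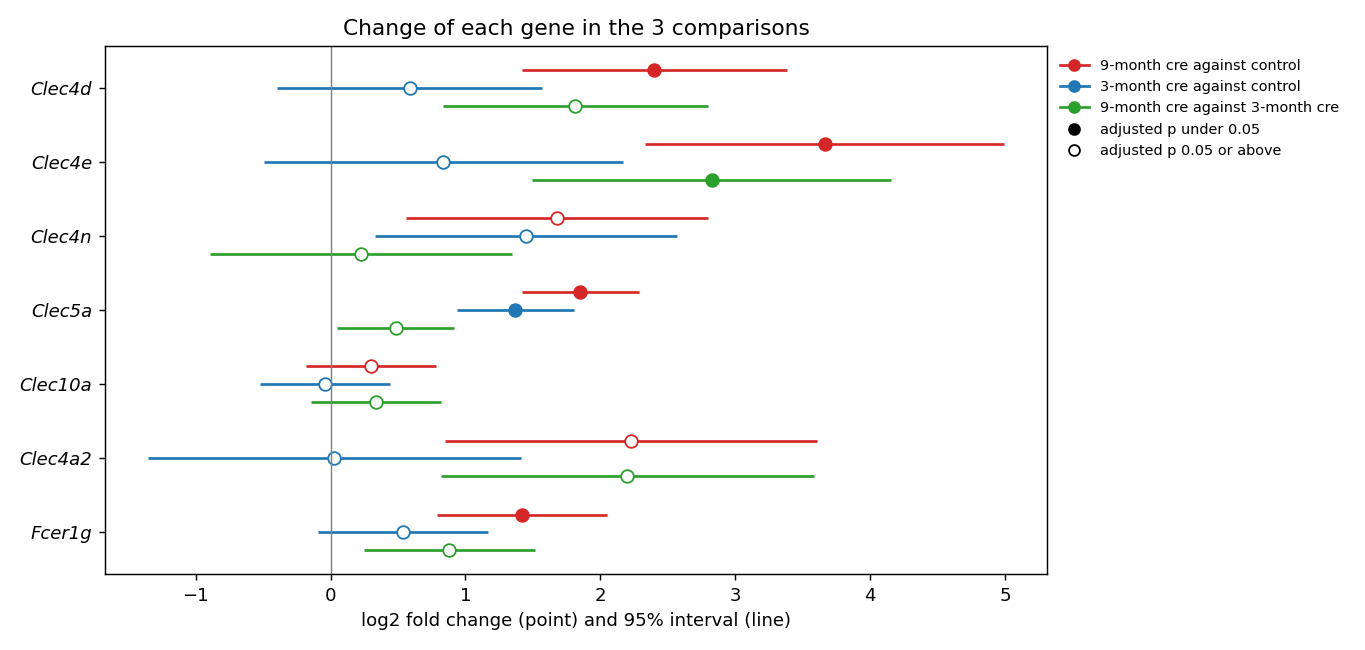
Log2 fold changes of the 7 measured genes in the 3 comparisons, with 95% intervals from limma; filled points are called at an adjusted p under 0.05. Clec5a is called in both comparisons with control, Clec4e in both comparisons of 9-month cre, and Clec10a in none.

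The comparison of 3-month cre with control addresses the early stage, with younger mice and the same 3 controls as above, so that the values at 3 and 9 months are not independent. Only Clec5a of the 7 genes rose, 2.58-fold (log2 fold change 1.37 ± 0.19, 95% interval 0.93 to 1.80, adjusted p = 0.0334). Over all genes, 0.368% were called higher and 0.0831% lower. Clec4n had a larger difference, 1.45 ± 0.49, with a wider error (adjusted p = 0.181). Clec4e was at 0.84 ± 0.58 (adjusted p = 0.465), Clec4d at 0.59 ± 0.43 (adjusted p = 0.486), and Fcer1g at 0.54 ± 0.28 (adjusted p = 0.329). Clec10a and Clec4a2 were near 0, at -0.039 ± 0.21 and 0.026 ± 0.60. Clec5a, Clec4n and Fcer1g had all 3-month lungs above all controls, 3 of the 6 genes well above background on all arrays against 19.6% of all genes. The median of the 6 values was 0.71, against 0.054 over all genes. On slide 1, the difference of its only 3-month lung from the 3 controls was 1.25 for Clec5a and 1.13 for Clec4n. It was 0.20 for Clec4e and 0.16 for Fcer1g. The median over the 7 genes was 0.20 on slide 1, against 0.59 over the 7 genes in the fit of all arrays. The Clec5a call was lost with sex as a covariate (1.52, adjusted p = 0.0915) and without any one of the 3 controls (1.52, 1.21 and 1.38) or of 3-month replicates 2 (1.22) and 3 (1.46). Clec4n was called without 9-month cre replicate 3 (1.45, adjusted p = 0.0440), a lung that enters this fit only through the shared spread.

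Between the 2 ages of cre lungs, Clec4e was the gene that rose, 7.09-fold from 3 to 9 months (log2 fold change 2.83 ± 0.58, 95% interval 1.5 to 4.16, adjusted p = 0.0401). Over all genes, 1.79% were called higher and 3.2% lower. Clec4a2 was at 2.20 ± 0.60 (adjusted p = 0.0646), or 0.98 with normexp and 0.93 in the deposited values, Clec4d at 1.81 ± 0.43 (adjusted p = 0.0506), and Fcer1g at 0.88 ± 0.28 (adjusted p = 0.0849). Clec5a was at 0.48 ± 0.19 (adjusted p = 0.142) and Clec10a at 0.34 ± 0.21 (adjusted p = 0.325). Clec4n was at 0.23 ± 0.49 (95% interval -0.89 to 1.35), an interval wide enough for a change in either direction. Among the 6 genes well above background on all arrays, 4 had all 9-month lungs above all 3-month lungs, against 14.6% of all genes, and the median was 0.68, against -0.029 over all genes. On slide 2 alone, with 3 lungs against 2, Clec4e was at 2.51 (adjusted p = 0.208), Clec4d at 1.76, Clec4a2 at 1.82, Fcer1g at 0.69 and Clec4n at 0.070. The Clec4e call was lost with sex as a covariate (2.83, adjusted p = 0.0603), and without control replicate 1 (2.83, 0.0552) or 2 (2.83, 0.0659), 3-month replicate 1 (2.51, 0.136), 2 (3.18, 0.115) or 3 (2.79, 0.0767), or 9-month replicate 1 (2.77, 0.103). Clec4d was called without control replicate 3 (1.81, adjusted p = 0.0169) and Fcer1g without 9-month replicate 2 (1.13, adjusted p = 0.0460). The sign of the Clec4n difference turned without 9-month replicate 3 (-0.39).

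The genes differed in which lungs were high. Among the 9-month lungs, replicate 3 was the highest in 6 of the 7 genes and replicate 2 the lowest in 6, while Clec4a2 was highest and Clec4d lowest in replicate 1. Among the 3-month lungs, replicate 2 was the highest in 6 genes. As a description over 9 arrays that share groups and slides, the profiles of 2 genes were compared by the root mean square difference of their levels, each centred on its mean. The closest pair was Clec5a and Fcer1g (0.431), followed by Clec4n and Fcer1g (0.479), and the farthest was Clec4e and Clec10a (1.55).

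By the same measure over all tested genes, the 3 profiles nearest to Clec4d were those of Tmem252 (0.339), Klra17 (0.349) and Il1b (0.392), and those nearest to Clec4e were Vsig8 (0.472), Pla2g7 (0.50) and Ceacam19 (0.526). Ms4a7 (0.216), Tfec (0.220) and Bcl2a1c (0.281) were nearest to Clec4n, and Sirpb1b (0.289), Osm (0.290) and Msr1 (0.296) to Clec5a. Cd300c2 (0.127), Cyth4 (0.129) and Fpr-rs6 (0.140) were nearest to Fcer1g. For the other 2 genes they were Fxyd6 (0.121), 4930555G01Rik (0.130) and Zfp772 (0.139) for Clec10a, whose levels spanned only 0.989 in all, and Rergl (0.162), 1700030M09Rik (0.217) and Gm5592 (0.280) for the dim Clec4a2. Msr1 encodes a macrophage scavenger receptor, Osm the cytokine oncostatin M and Il1b interleukin 1 beta.

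Clec4e, Clec4d, Clec4n and Clec4a2 lie in a row of 9 Clec4 genes on chromosome 6, which share sequence, so that a probe may also bind transcripts of a relative. At 9 months all 9 had positive log2 fold changes. Clec4a2, Clec4a4 and Clec4b2 passed the filter on dim probes through the 9-month lungs alone, which favours a positive sign. They are not set against the share of all genes. Clec4a1, Clec4a3, Clec4b1, Clec4n, Clec4d and Clec4e were well above background on all arrays, and all were positive, against 52.8% of all genes. Among these, Clec4d and Clec4e were called, and both are already counted among the receptors above. Clec4b2 was also called (1.79 ± 0.37, adjusted p = 0.0316), and 3.65% of all genes were called higher. Clec4b2 was well above background in none of the controls, which makes its rise at least 1.04-fold. Clec4a1 was at 1.5 ± 0.37 (adjusted p = 0.0514), Clec4a4 at 1.55 ± 0.53 (adjusted p = 0.109) and Clec4a3 at 1.16 ± 0.37 (adjusted p = 0.0905), while Clec4b1 was at 0.10 ± 0.25 (adjusted p = 0.818). At 3 months all 9 were again positive, against 57.6% of all genes, but Clec4a2 (0.026 ± 0.60) and Clec4a4 (0.035 ± 0.53) were near 0. Each of these was well above background in 1 of 3 controls, and the sign of Clec4a2 turned with other processing. Limma called 0 of the 9, and 3 had an unadjusted p under 0.05, which 18.7% of all genes had. On the side of the row where the neighbours were tested, C3ar1, the receptor for the complement peptide C3a, was at 1.03 ± 0.41 at 9 months (adjusted p = 0.15), Necap1 at -0.11, Foxj2 at -0.33 and Slc2a3 at 0.78.

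**Figure D4:**
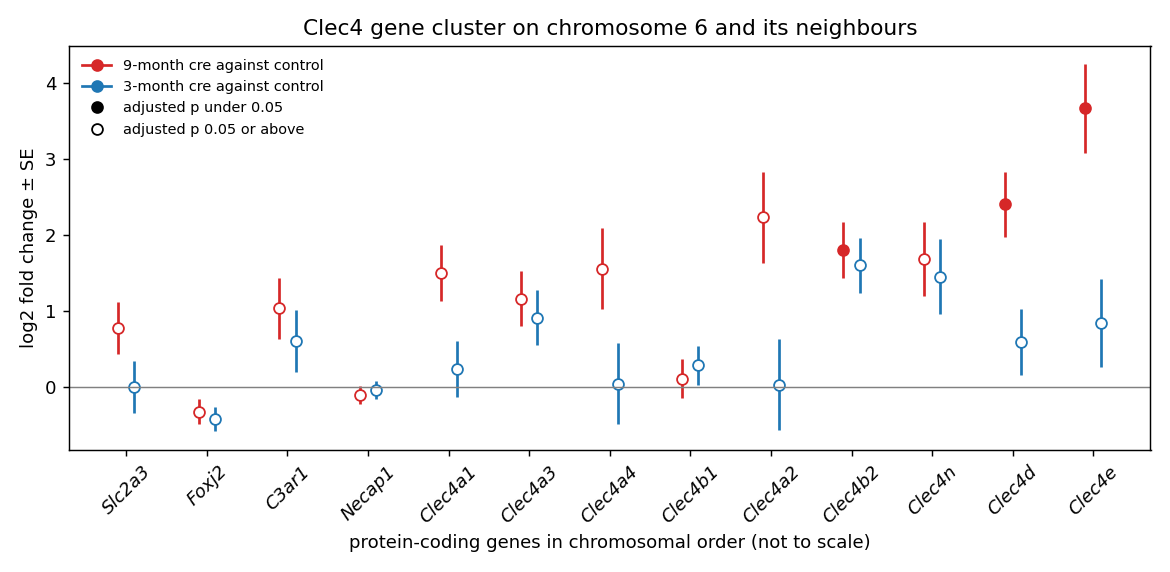
Log2 fold changes against control, with standard errors, for the Clec4 genes of chromosome 6 and their neighbours in gene order, at 3 and 9 months. At 9 months Clec4e is the highest, at 3.66, and Clec4b1 lies near 0; Clec4b2 was below the background limit in all controls, so the point drawn for it is not a measured fold.

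A further 28 C-type lectins were tested. At 9 months 2 of them rose and none fell, the median being 0.31: Clec4b2 and Mrc1, the macrophage mannose receptor (0.81 ± 0.15, adjusted p = 0.0266). Clec4b2 passed the filter on dim probes through the 9-month lungs alone. Of the 24 lectins that were well above background on all arrays, 1 rose, Mrc1, a share near the 3.65% of all genes called higher. At 3 months 2 rose, Mrc1 (1.19 ± 0.15, adjusted p = 0.0298) and Olr1, a receptor for oxidised lipoprotein (1.68 ± 0.24, adjusted p = 0.0344). From 3 to 9 months 1 fell, Cd209d (-1.21 ± 0.26, adjusted p = 0.0427), a share of the 28 near the 3.2% of all genes called lower.

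The partners of the receptors were followed next. Of 20 other genes of adaptors, Fc receptors and related receptors, activating or inhibitory, 8 rose at 9 months and none fell. The median was 0.98 on the log2 scale, and 3.65% of all genes were called higher. The 8 include the inhibitory receptor Fcgr2b (1.25, adjusted p = 0.0163). The 4 with the largest change were Trem2, a lipid receptor of macrophages (2.39 ± 0.28, adjusted p = 0.00994), Trem3 (2.10 ± 0.41, adjusted p = 0.0274), Cd300ld (1.80 ± 0.30, adjusted p = 0.0199) and Tyrobp (1.34 ± 0.25, adjusted p = 0.0263). Tyrobp is the adaptor of Clec5a, and Hcst, its other adaptor, also rose (0.98). At 3 months 1 rose, Trem2 (1.84 ± 0.28, adjusted p = 0.0430). Between the cre ages Trem3 (2.09 ± 0.41), Cd300ld (1.74 ± 0.30) and Fcgr4 (0.79 ± 0.16) rose, and Fcer1a, the immunoglobulin E receptor chain that shares Fcer1g, fell (-0.75 ± 0.17, adjusted p = 0.0463). Fcer1a was dim, with mean levels of -4.32 in 3-month and -5.07 in 9-month cre. Its probe was well above background in every cre lung but in only 2 of 3 controls.

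Downstream of the adaptors, 23 genes of the SYK and CARD9 route were tested. Card9 itself was not among the genes tested. For comparison, 3.65% of all genes were called higher at 9 months. At 9 months 7 rose and 0 fell, with a median of 0.50: Fgr, a kinase of the SRC family (1.66 ± 0.35, adjusted p = 0.0345), Vav1 (1.04 ± 0.19, adjusted p = 0.0236), Syk (1.03 ± 0.19, adjusted p = 0.0234), Malt1 (0.97 ± 0.20, adjusted p = 0.0340), Plcg2, and the phosphatases Ptpn6 and Inpp5d, which restrain this signalling. At 3 months limma called 0, and 4 of the 23 had an unadjusted p under 0.05, close to the 18.7% of all genes, with Pycard at 0.68 ± 0.20, Malt1 at 0.57 ± 0.20 and Src, a kinase, lower at -0.30 ± 0.11. From 3 to 9 months Ptpn6 (0.89 ± 0.18, adjusted p = 0.0401), Vav1 (0.88 ± 0.19, adjusted p = 0.0424) and Syk (0.81 ± 0.19, adjusted p = 0.0490) rose.

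Of 18 cytokines and mediators that this route is known to induce, 3 rose at 9 months, against 3.65% of all genes, and 0 fell. They were Cxcl1, which attracts neutrophils (2.24 ± 0.54, adjusted p = 0.0479), Osm (2.17 ± 0.31, adjusted p = 0.0147) and Ptgs2, the inducible cyclooxygenase (1.03 ± 0.22, adjusted p = 0.0332). Il1b was at 2.34 (adjusted p = 0.0525) and Tnf at 1.17 (adjusted p = 0.0524). Of the 13 that were well above background on all arrays, 9 had an unadjusted p under 0.05, against 27.3% of all genes. At 3 months limma called 0 of the 18, and 2 of those 13 had an unadjusted p under 0.05, Osm at 1.32 ± 0.31 (adjusted p = 0.108) and Ptgs2 at 0.78 ± 0.22 (adjusted p = 0.133). From 3 to 9 months it also called 0, with 4 of the 13 at an unadjusted p under 0.05, against 28.7% of all genes.

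Some markers of myeloid cells moved beside the receptors, and their part in the results was not tested. At 9 months 3.65% of all genes were called higher, and at 3 months 0.368%. Of 15 general myeloid genes, 7 rose at 9 months and 0 fell, with a median of 0.92, among them Cybb (1.72 ± 0.32), Cd68 (1.33 ± 0.24) and Itgb2 (1.06 ± 0.25). Their signals, summed relative to the array's 75th percentile, were 126 to 150 in the controls, 161 to 209 in 3-month cre and 202 to 284 in 9-month cre. The corresponding sum over the 7 receptor and adaptor genes was 14.3 to 18.8, 21.2 to 31.5 and 33.6 to 79.0. Fcer1g alone made up 48.8% to 62.7% of it, and without Fcer1g the sum was 5.33 to 8.40, 10.52 to 14.49 and 15.6 to 40.5. Of 14 alveolar macrophage genes 2 rose at 9 months (Ctsk, 1.87 ± 0.28, and Atp6v0d2, 1.15 ± 0.22), and the same 2 rose at 3 months (2.51 ± 0.28 and 1.66 ± 0.22). The median of the 14 was 0.26 at 9 months, with 9 positive, and 0.83 at 3 months, with 11 positive. From 3 to 9 months only 1 of the 14 was positive, the median was -0.45, and Car4 fell (-0.91 ± 0.19, adjusted p = 0.0402). The sums were 134 to 218, 310 to 356 and 237 to 357. Of 17 monocyte and interstitial macrophage genes 3 rose at 9 months, among them Gpnmb (2.71) and Ms4a7 (1.75), and at 3 months Gpnmb rose (2.39), with sums of 205 to 231, 232 to 251 and 284 to 329. Every such sum, here and below, is weighted to its brightest probes and does not count cells. The brightest in 9-month cre were Chil3 in the alveolar macrophage list (mean level 7.25) and Ly6c2 in the monocyte list (7.24).

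Of 14 neutrophil genes 4 rose at 9 months: Ngp, at least 21.2-fold, Camp (4.91), Mpo (2.58) and Lcn2 (2.16). Ngp was not well above background in any control and passed the filter through the cre lungs alone. Of the 13 genes well above background on all arrays, 3 rose, against 3.65% of all genes called higher. At 3 months Lcn2 rose (2.12, adjusted p = 0.0258), and Mpo rose from 3 to 9 months (1.94, adjusted p = 0.0478). The neutrophil sum was 117 to 228 in the controls, 225 to 304 in 3-month cre and 201 to 480 in 9-month cre. The 9-month sums were 480 in replicate 1, 447 in replicate 2 and 201 in replicate 3, the lung with the highest Clec4e, Clec4n and Fcer1g levels. Of 14 dendritic cell genes 1 rose at 9 months, Flt3 (1.05 ± 0.13), and 1 fell, Snx22 (-0.99 ± 0.23), with sums of 167 to 193, 221 to 243 and 147 to 278.

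**Figure D5:**
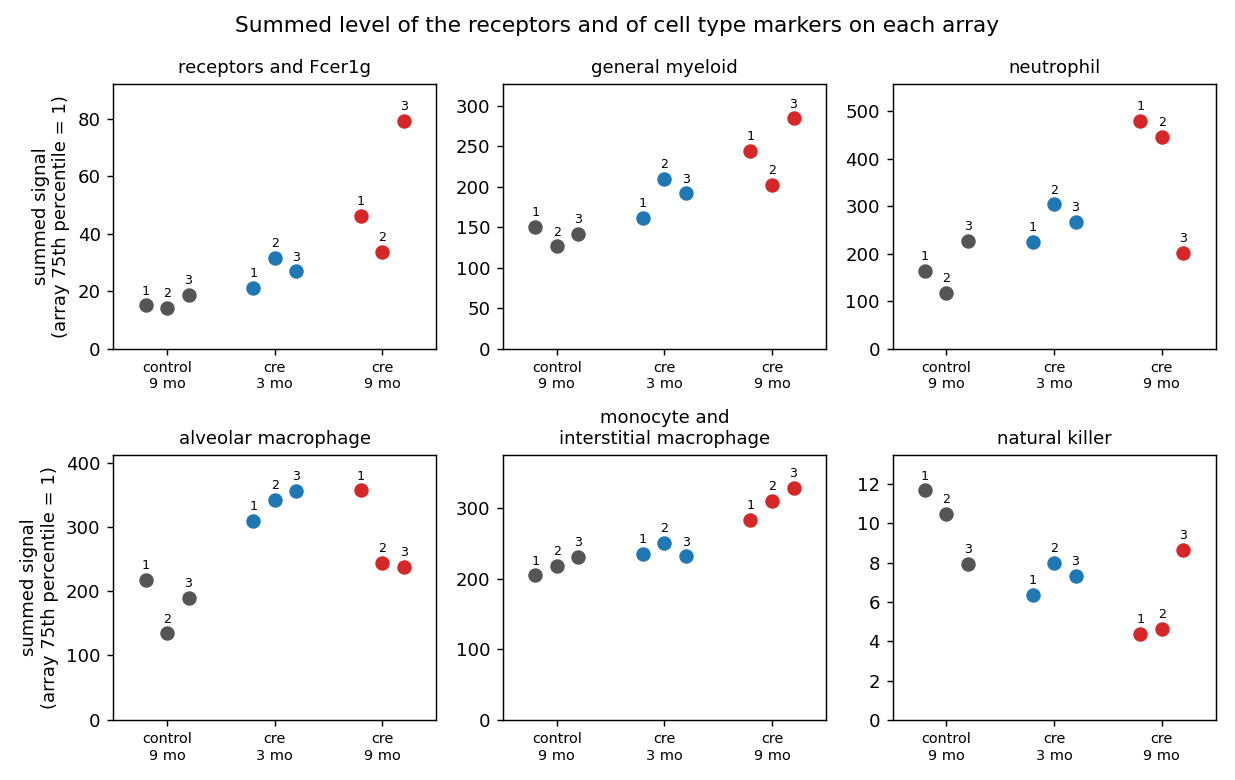
Summed signal of the receptor and adaptor genes and of the marker lists on each array, relative to the array's 75th percentile, by group. All 9-month receptor sums lie above all others, the 9-month general myeloid sums start at 202, just below the highest 3-month sum of 209, and the 9-month neutrophil sums range from 201 to 480.

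Fcer1g is also used by mast cells, basophils, natural killer cells and platelets. Of 8 mast cell and basophil genes limma called 0 in each comparison, with 1 at an unadjusted p under 0.05 at 9 months and 0 in the other 2 comparisons, and sums of 32.9 to 40.7 in the controls, 33.7 to 38.1 in 3-month cre and 31.1 to 52.1 in 9-month cre. Of 10 natural killer cell genes 5 fell at 9 months, against 2.81% of all genes called lower. Among them were Ncr1 (-2.41, well above background in 1 of 3 lungs of 9-month cre), Klra8 (-1.93), Gzma (-1.47) and Klrb1c (-1.34). The sums of the 10 were 7.93 to 11.7 in the controls, 6.37 to 7.98 in 3-month cre and 4.36 to 8.64 in 9-month cre. At 3 months Klra8 (-1.76) and Klrb1c (-1.21) fell. Of 10 platelet genes limma called 0 in each comparison. For 9 months, 3 months and 9 against 3 months, 1, 0 and 4 had an unadjusted p under 0.05. In the same order, 9, 3 and 9 of the 10 were positive, with medians of 0.56, -0.26 and 0.76. For the last comparison, 28.7% of all genes had an unadjusted p under 0.05. The platelet sums were 5.07 to 10.6, 4.79 to 10.8 and 10.4 to 16.8. Of 12 genes of lung epithelium and endothelium limma also called 0, with 2, 1 and 1 at an unadjusted p under 0.05. Their sums overlapped, at 1224 to 1352, 1197 to 1570 and 1326 to 1685. Of 12 heart muscle genes 1 fell at 9 months, Myh7 (-1.55 ± 0.31). At 3 months limma called 0, but 9 of the 12 were lower with an unadjusted p under 0.05, against 18.7% of all genes in either direction, and the median was -1.56. Their sums were 77.8 to 248, 35.3 to 103 and 75 to 98.8, and their part in the results was not tested.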

How the data were processed

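The deposited scanner files hold the intensity and flags of each spot. Agilent Feature Extraction 10.7.3.1 made them, per the file headers, subtracting background in the processed signal without scaling between arrays. A separate deposited set, whose intensity values the authors had normalized between arrays on a linear scale, served as an alternative. The labels call replicates biological.

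Control and irregular spots were left out, spots of a probe averaged, and log2 processed signal centred on each array's 75th percentile. Of 56605 probes, 37646 passed the filter: well above background throughout at least 1 group. RefSeq identifiers named 32994 probes, and the brightest probe represented a gene, giving 16842 genes. All 9 arrays entered 1 fit in limma 3.58.1 under R 4.3.3, with two-sided Benjamini-Hochberg adjusted p-values. R's data.table, at version 1.17.8, loaded the files. Standard errors come from 3 arrays per group, and that number limits the precision. A dim group's fold is a bound against the dimmest signal well above background. The array design names build mm9, so GRCm38.p6 served only for promoter sequences, names and gene order.

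Genes named were all listed receptors, up to 4 called genes of a list with the largest change (or up to 2 by smallest p where none was called), and the 3 nearest profiles. Some genes that meet this rule are not reported here. Other genes were named after their values were seen: Il1b, Tnf, Hcst, Plcg2, Ptpn6, Inpp5d, Src, the Clec4 neighbours, and Terf1 and Sftpc as checks. The receptors and lists were chosen with earlier results of these data known. The fits were tested on simulated data, and alternatives are given in the closing section.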

Additional observations from a re-analysis of the deposited data

Results flagged for a closer look

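Clec4e differed between the cre lungs of 9 and of 3 months, with a log2 difference of 2.83 in the fit of all 9 arrays, so that its difference from the shared controls was larger at 9 months. The 9-month lungs were all above the 3-month lungs. Age and length of tamoxifen treatment differ together between these groups.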

How the results depend on the processing

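Limma called 4, 1 and 1 of the 7 genes in 9-month cre against control, 3-month cre against control and 9-month against 3-month cre. With the slide as a block, or sex as a covariate, it called 0 in each (3, 1 and 4 genes had an unadjusted p under 0.05 with the block, and 6, 1 and 5 with sex), and also 0 on slide 2 alone (9 against 3 months; 3 unadjusted). Slide 1 alone also gave 0 for 3-month cre (2 unadjusted), but it holds 1 cre lung, taken to vary like the controls, and says nothing about stability. Fitting only the 2 groups compared gave 1 at 9 months and 2 at 3 months. Without the filter on dim probes, 3-month cre and 9 against 3 months gave 0 (2 and 5 unadjusted). For 9 against 3 months, normexp background correction, quantile normalization, the deposited values, probes well above background on all arrays, the mean of a gene's probes and each probe on its own gave 2, the added gene being Clec4d. Leaving out one replicate gave 1 to 6, 0 to 2 and 0 to 2. The replicate numbers did not pair the samples (correlations of same-numbered deviations -0.24 to 0.045, 1 of 9 arrays closest to its own number). With a replicate block 2, 0 and 0 were called. The sign of Clec4a2 at 3 months turned with normexp (-0.19), the deposited values (-0.0087), the slide block and slide 1 alone (-0.73 in both), and ranged from -0.45 to 0.58 without one replicate. Clec10a at 3 months turned with the slide block and slide 1 alone (0.15 in both) and ranged from -0.23 to 0.10 without one replicate. Clec4n between the cre ages ranged from -0.39 to 0.75. Of the single-gene values at 9 months against control none turned in sign, and 114 kept their side of the threshold, 23 lost the call and 2 gained it. Clec4a2 has no value where all arrays had to be above background. Except where fewer samples were fitted, the cause of these changes was not tested. Signal over background limits Clec4a2, the dimmest Clec5a probe, Clec4b2, Clec4a4, Ngp, Ncr1 and Fcer1a.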

Other observations

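H2-Aa, a class II antigen presentation chain listed with the dendritic cell genes, fell from 3 to 9 months (log2 fold change -1.34 ± 0.30, adjusted p = 0.0475), while H2-Ab1 (-0.25) and Cd74 (-0.13) of the same presentation complex were not called. Lyz2, a lysozyme gene, also fell (-2.03 ± 0.35, adjusted p = 0.0306). Its mean level was 2.92 in the controls, 4.63 in 3-month cre and 2.60 in 9-month cre. Cd209a, a relative of the dendritic cell lectin DC-SIGN, was at -1.39 ± 0.41 in 9-month cre against control (adjusted p = 0.0775), without a call. From 3 to 9 months Cebpb, a transcription factor of myeloid cells, rose (0.77 ± 0.13, adjusted p = 0.0290).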
